A study of Rattus norvegicus with 12 samples.

Results

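One day after removal of most of the liver, 271 genes of rat liver (3.2% of those tested) differed at least 2-fold from their level at 0 h in every one of 3 surgical groups. These genes are described here, with most room for those outside the cell cycle and for the hepatocyte functions that remained lowered. The values are RPKM, reads scaled to transcript length and library size, from RNA sequencing of whole liver. The columns at 0 and 24 h after partial hepatectomy (PH) were paired within each group, which gave 6 of the 12 columns of the study and 3 pairs. A log2 ratio was taken with 1 RPKM added to both values, among 8459 genes that averaged 1 RPKM or more across the 12 columns. A gene was counted as displaced when its ratio was at least 2-fold, in the same direction, in all 3 pairs. That rule found 215 genes higher at 24 h (2.54% of the genes tested) and 56 genes lower (0.662%). The rule used these same ratios, so they are given as a description without a test.

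All rats were male Sprague Dawley, aged 4 to 5 months, and the Cont columns came from rats with a sham biliary fistula. By GEO's labels, the BA columns came from rats with a biliary fistula and no bile, and the BF columns from rats with a fistula and an infusion of bile acids. The published naming of these abbreviations is the opposite (BF for the fistula alone, BA for the infusion), so groups are called here by their prefix. The conflict does not touch the pairing of times within a prefix. The CYP7A1 levels given below go with the published naming, since the paper reports raised Cyp7a in rats with the fistula alone. PCNA, a gene of DNA synthesis, was at 381, 353 and 75.2 RPKM at 24 h in the Cont, BA and BF columns. Its order also goes with the published naming, since the paper reports a weaker rise of DNA replication genes with the fistula alone. The list of DNA synthesis genes used below was mixed. Its summed level at 24 h was lowest in BF (2622, 2163 and 1319 RPKM in Cont, BA and BF). Its median log2 ratio of 24 h to 0 h was lowest in BA (2.50, 1.29 and 1.86), so PCNA alone does not settle the naming. Sham or fistula surgery preceded PH by 24 h. The infusion was sodium taurocholate, a conjugated bile acid, at 0.5 mg/g/day into the duodenum from 12 h before PH, and the other rats received saline there. Every column, 0 h included, therefore comes from an animal with recent abdominal surgery, and no column comes from an unoperated rat. Each column merges 2 runs, which used the RNA of a single rat and pooled RNA of 3 further rats, so no column has a replicate of its own. The SD given with a mean log2 ratio is over the 3 pairs and holds differences between the surgical groups as well as differences between rats.

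After PH, quiescent hepatocytes re-enter the cell cycle in a nearly synchronous first wave, and in the rat DNA synthesis peaks about a day after surgery. The remnant meanwhile has to keep up blood glucose, plasma protein and bile production. Many specialized products of the adult hepatocyte, such as cytochrome P450 enzymes that oxidize drugs and steroids, carrier proteins secreted into plasma and male-specific proteins controlled by growth hormone, are known to fall in mRNA during this period. Genes that dividing cells need and lowered adult functions are therefore both described below, beside displaced genes that belong to neither.

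The total of all values was 732811 to 785092 RPKM in the 6 columns, and the 10 most abundant genes held 29.4% to 36.7% of it. The number of reads behind a value is unknown. The median gene was higher at 24 h by 0.21 (Cont), 0.15 (BA) and 0.28 (BF) on the log2 scale. With each pair centred on its median gene, 169 genes remained at least 2-fold higher in all 3 pairs, all of them among the 215, and 80 genes were 2-fold lower, including all 56. The share of higher genes among the displaced was 79.3% as deposited and 67.9% after centring. The tissue label fitted its markers: the summed level of 15 hepatocyte marker genes was 161357 to 175882 RPKM at 0 h and 124239 to 135329 RPKM at 24 h, and none was at 0. The summed level of 16 neutrophil and monocyte markers was 15.6 to 34.5 RPKM at 0 h and 42.9 to 71.9 RPKM at 24 h, with LTF, a granule protein of neutrophils, at 0 in all 6 columns. In whole liver, fewer cells of a type and less RNA per cell cannot be told apart.

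Within single pairs the size rule was met by more genes: 701 higher and 256 lower in the Cont pair (8.29% and 3.03%), 324 and 119 in the BA pair (3.83% and 1.41%), and 784 and 159 in the BF pair (9.27% and 1.88%). A further 316 genes were 2-fold higher in exactly 2 pairs and 75 were 2-fold lower in exactly 2. A set of 26 genes were 2-fold higher in 1 pair and 2-fold lower in another. Without the BA pair, 479 genes would be counted as higher and 104 as lower. At a 4-fold threshold 79 genes were higher in all 3 pairs, of which 11 lay outside the cell cycle lists, and 6 were lower.

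Lists of genes by function were also examined with limma, a linear model fitted to all 8459 genes with the prefix as a block. At an adjusted p under 0.05 (Benjamini-Hochberg) limma called 2310 genes higher (27.3%) and 522 lower (6.17%), so 81.6% of its calls were upward. After centring of the pairs it called 1034 higher and 961 lower, 51.8% upward. These counts depend on which pairs enter: without the BF pair 94 were higher and 15 lower, and without the Cont pair 368 and 117. Without the BF pair at most 3 genes of any list outside the cell cycle were called in either direction, and without the Cont pair several lists also lost most of their calls. With no filter on low values limma called 37 genes higher and 9 lower. Without the BA pair limma called 2345 genes higher and 525 lower. Counts of list members that rose or fell by limma are to be read against the 27.3% and 6.17% of all genes. Counts after centring or without a pair are to be read against the totals of that setting given here, out of the same 8459 genes.

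**Figure D1:**
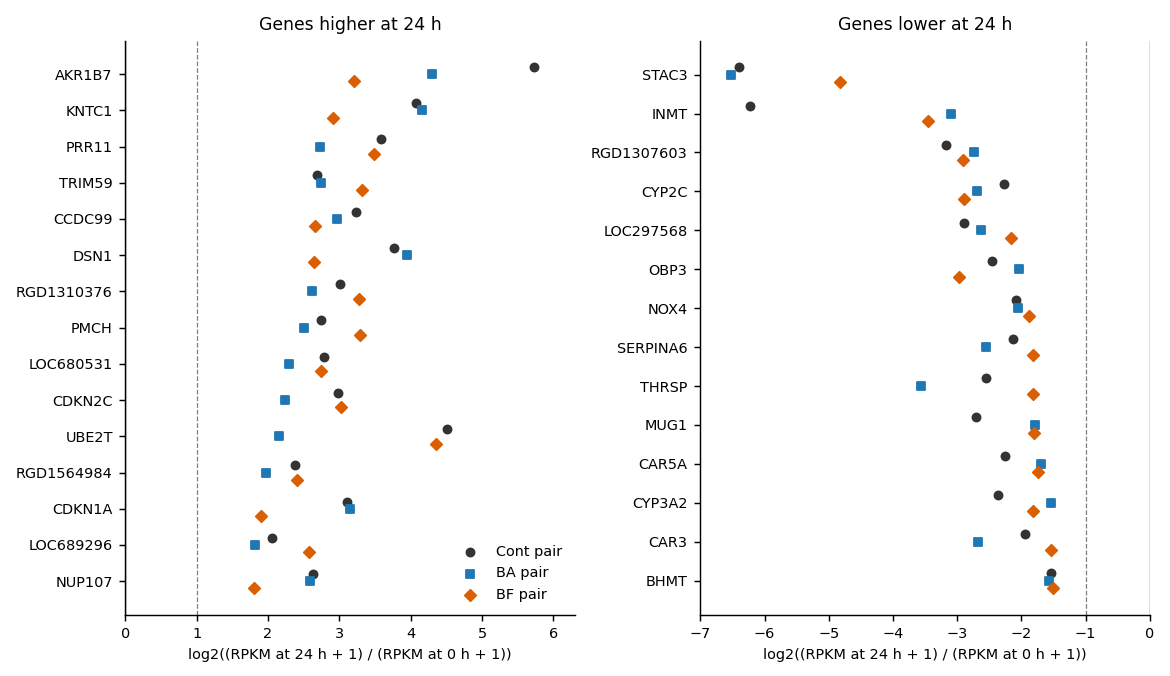
Log2 ratio of RPKM at 24 h to RPKM at 0 h (1 RPKM added to each) for 15 higher and 14 lower genes ranked first outside the cell cycle lists, ordered by the pair with the smallest change. Each point is 1 pair of columns (circles Cont, squares BA, diamonds BF), and the dashed line marks 2-fold; all points lie beyond it because the genes were chosen so.

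The cell cycle came first among the higher genes. Of 157 tested genes on the lists for DNA synthesis and for mitosis, 120 were displaced upward, and no gene of these lists was displaced downward. The mitosis list had 76 of 83 genes displaced and the DNA synthesis list 44 of 74. CCNB1, cyclin B1 of the mitotic kinase, stood at 0.78, 1.54 and 0.56 RPKM at 0 h in the Cont, BA and BF columns and at 95.3, 67.2 and 92.0 RPKM at 24 h. Its 24 h columns were all far above its 0 h columns, and its mean log2 ratio of 5.47 was the largest of the mitosis list by the ranking used. The kinases and motor proteins AURKB and KIF20A and the kinetochore gene SPC25 followed, with mean log2 ratios of 4.85, 4.63 and 5.19.

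The 95 higher genes outside these lists were grouped by known role after their values had been seen. The largest group with a shared role, 16 genes, still belonged to cell division: kinetochore, spindle, checkpoint and repair genes that the lists did not hold. KNTC1, a kinetochore protein of the spindle checkpoint, was at 0.07, 0.05 and 0.07 RPKM at 0 h against 17.0, 17.7 and 7.02 RPKM at 24 h in the Cont, BA and BF columns. The gene was barely detected at 0 h in any group, and its mean log2 ratio was 3.71 ± 0.70 (SD, n = 3 pairs). DSN1, a subunit of the kinetochore complex that binds microtubules, showed the same order of columns, with 19.6 and 20.4 RPKM at 24 h in Cont and BA against 7.43 in BF. CCDC99 (Spdl1, which brings dynein to kinetochores) reached 9.14 to 16.6 RPKM from less than 1 RPKM. UBE2T, the ubiquitin-conjugating enzyme of the Fanconi repair pathway, stood at 0.25, 2.39 and 0.13 RPKM at 0 h against 27.5, 14.1 and 22.1 RPKM at 24 h. Here the BA column was the high one at 0 h, and the BA pair had a log2 ratio of 2.15 against 4.51 and 4.36 in the other pairs.

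PRR11 and RGD1310376 (Arhgef39), which take part in cell cycle progression and in activation of small GTPases, were at 0.48 RPKM or less in every 0 h column and at 6.88 to 13.8 RPKM in every 24 h column. PMCH, the precursor of melanin-concentrating hormone, was at 0.17 to 0.37 RPKM at 0 h against 6.40 to 10.5 RPKM at 24 h. In RefSeq the Pmch gene overlaps Parpbp, Prr11 overlaps Ska2 and Arhgef39 overlaps Ccdc107. Other genes named in this report also overlap a neighbour, among them KIF20A, SPC25, TIMP1, CYP3A2, NR1D1, RNASE4 and TYMP. The library kit does not keep strand, so reads of such overlapping genes cannot be told apart. TRIM59, a ubiquitin ligase, was at 0.60 RPKM or less at 0 h against 8.54 to 12.2 RPKM at 24 h. LOC680531 and LOC689296, which carry only provisional names, were also among the 15 highest-ranked.

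Sequences upstream of 7 displaced genes are shown because the letters that mark cell cycle promoters in other work, TTTGAA and CCAAT, can be looked up in them next to promoters of lowered hepatocyte genes. They were chosen after the values had been seen. The stretches run from 150 to 1 bases before the RefSeq start site (build GRCr8), 5′ to 3′ on the gene's strand, and capitals mark the letters TTTGAA or their variant TTCGAA, the box CCAAT, and the hepatocyte factor letters TTNNGCAA and CAAAGTCCA, on either strand. For the higher genes outside the cell cycle lists they are as follows.
PRR11: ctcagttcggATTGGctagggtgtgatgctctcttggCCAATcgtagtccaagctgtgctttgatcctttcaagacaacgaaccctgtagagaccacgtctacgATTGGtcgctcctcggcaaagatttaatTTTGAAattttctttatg
KNTC1: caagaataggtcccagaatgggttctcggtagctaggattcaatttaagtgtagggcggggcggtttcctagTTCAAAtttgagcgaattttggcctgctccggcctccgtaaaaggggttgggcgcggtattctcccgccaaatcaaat
RGD1310376: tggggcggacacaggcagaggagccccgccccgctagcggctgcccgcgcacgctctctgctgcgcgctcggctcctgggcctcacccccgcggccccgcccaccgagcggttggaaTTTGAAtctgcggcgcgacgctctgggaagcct
XPO1: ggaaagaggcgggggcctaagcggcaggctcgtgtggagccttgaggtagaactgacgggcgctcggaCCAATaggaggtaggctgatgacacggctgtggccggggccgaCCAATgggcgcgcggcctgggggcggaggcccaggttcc
They lie at chr10:72418276-72418425 (- strand), chr12:38500458-38500607 (- strand), chr5:62551871-62552020 (- strand) and chr14:101434300-101434449 (+ strand). Over the 250 bases upstream, TTTGAA or TTCGAA on either strand occurred in 12.1% of the 6546 tested genes that matched a single RefSeq start. The share was 40.8% of 98 higher cell cycle genes, 25.4% of 71 higher genes outside those lists, and 23.1% of 39 lowered genes. CCAAT occurred in 36.9% of all genes, 59.2% of the higher cell cycle genes, 53.5% of the other higher genes and 48.7% of the lowered genes. The median GC content of the window was 60.0%, 58.4%, 58.8% and 53.6% in the same order, and its part in these shares was not tested. TTTCCCGC, TTTGGCGC or TTTCGCGC, letters known from E2F sites, occurred in 3.24% of all genes, 13.3% of the higher cell cycle genes, 2.82% of the other higher genes and 0 of 39 lowered genes. A match is only a match of letters.

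Inhibitors of cyclin-dependent kinases were displaced together with the genes that drive division. CDKN1A (p21), a target of p53 that restrains the cell cycle, was at 9.24, 7.98 and 7.41 RPKM at 0 h against 86.8, 78.9 and 30.4 RPKM at 24 h in the Cont, BA and BF columns. All 24 h columns were above all 0 h columns, and the BF column was the lowest of the 3 at 24 h. CDKN2C (p18), an inhibitor of CDK4 and CDK6, went from 1.22 to 1.77 RPKM at 0 h to 20.8, 11.7 and 17.1 RPKM. The mean log2 ratios were 2.72 ± 0.71 and 2.75 ± 0.44. These were the 2 displaced genes of the 22 tested on the list of growth arrest and p53 targets, whose median log2 ratio was 0.41 (0.21 for all genes). By limma 8 of the 22 rose (36.4%, against 27.3% of all genes) and none fell (6.17% of all genes). Those that rose included FAS, BAX and MDM2. After centring of the pairs 5 were higher and 3 lower, when 1034 and 961 of all 8459 genes were. Without the Cont pair 3 were higher, when 368 of all genes were.

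Among the displaced genes 7 serve the nuclear pore and transport through it. NUP107, a structural protein of the pore's outer ring, was at 2.69, 2.28 and 2.09 RPKM at 0 h against 21.9, 18.8 and 9.82 RPKM at 24 h. NUP85, of the same ring, went from 5.38 to 8.11 RPKM to 28.4, 33.4 and 13.3 RPKM. For both genes the BF column was the lowest at 24 h, and for neither did any 24 h column reach down to a 0 h column. XPO1, the export receptor for proteins and some RNAs, had one of the steadiest changes, from 16.7, 21.0 and 18.5 RPKM to 49.6, 58.3 and 47.4 RPKM (mean log2 ratio 1.42 ± 0.10). RANGAP1, which sets the direction of transport, went from 15.9 to 29.6 RPKM to 72.5 to 99.9 RPKM. Of 16 genes described as nucleoporins, 15 had ratios above 0 in all 3 pairs and 2 were displaced. The median log2 ratio of the 16 was 0.88. The exception was NUP98, at 18.1, 18.5 and 19.4 RPKM at 0 h and 19.3, 16.8 and 16.2 RPKM at 24 h.

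Tubulins, the subunits of microtubules, were higher as a family: all 8 tested genes had ratios above 0 in all 3 pairs and 5 were displaced, with a median log2 ratio of 2.05. TUBB5 was at 33.5, 89.0 and 21.6 RPKM at 0 h against 369, 214 and 283 RPKM at 24 h. TUBB6 was at 1.86, 21.8 and 2.09 RPKM at 0 h against 92.9, 70.1 and 92.2 RPKM at 24 h. In both, the BA column was the highest at 0 h and the lowest at 24 h. The log2 ratio of TUBB6 was accordingly 1.64 in the BA pair and 5.04 and 4.92 in the Cont and BF pairs. TUBA1B and TUBA1C, alpha tubulins of nearly identical sequence, had mean log2 ratios of 2.53 and 2.12, and reads may have been split between them. The whole list of actin, tubulin and keratin genes had 5 of 55 displaced upward. By limma 31 rose (56.4%, against 27.3% of all genes, with 19 after centring and 6 without the Cont pair).

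**Figure D2:**
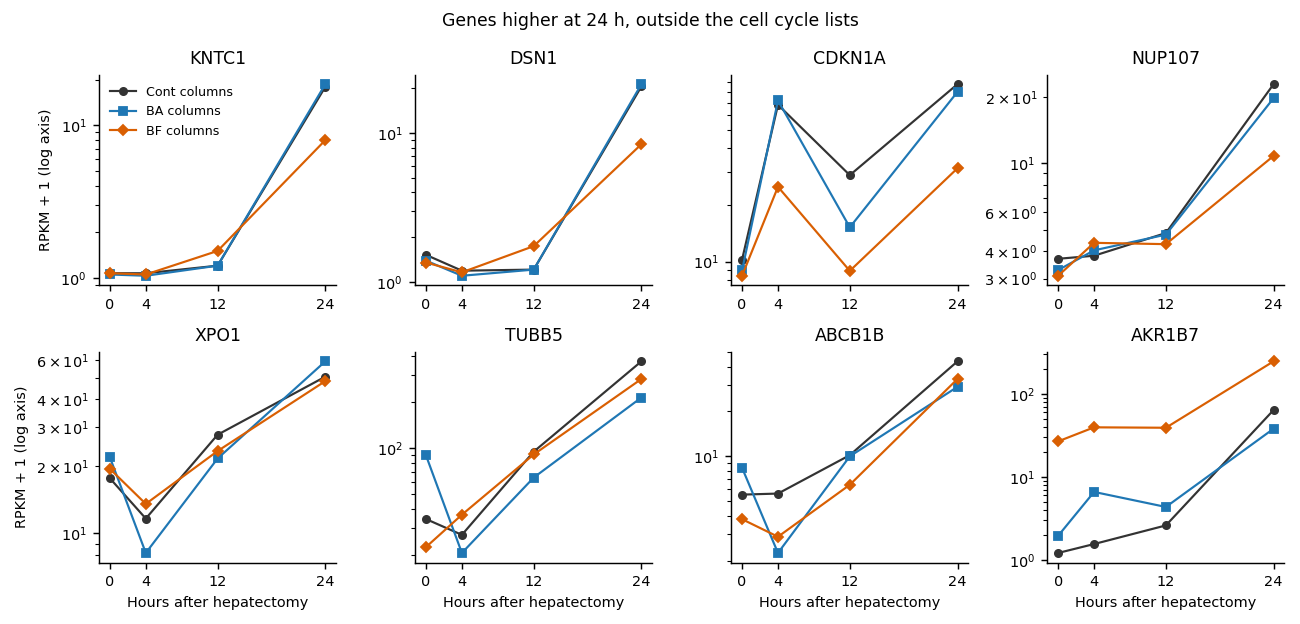
Level (RPKM plus 1, log axis) of 8 genes that were at least 2-fold higher at 24 h in all 3 pairs and lie outside the cell cycle lists, at 0, 4, 12 and 24 h after hepatectomy. Each line joins the 4 columns of 1 prefix (circles Cont, squares BA, diamonds BF) without error bars, since a column has no replicate; CDKN1A was already high at 4 h, while KNTC1 and DSN1 stayed under 1 RPKM until 12 h.

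Genes of RNA handling were displaced in small number. NOLA2 (Nhp2), part of the particles that modify ribosomal RNA, was at 23.9, 31.4 and 16.9 RPKM at 0 h and 106, 90.4 and 99.0 RPKM at 24 h. DDX39, an RNA helicase of mRNA export, and RBM3, a cold-inducible RNA-binding protein, had mean log2 ratios of 1.89 and 1.61. NOLA2 was the single displaced gene of 69 on the list of ribosome biogenesis. That list moved by less than the threshold and in 1 direction, with a median log2 ratio of 0.55. By limma 49 of the 69 genes were higher (71.0%, against 27.3% of all genes) and none lower. After centring of the pairs 16 of the 69 were higher, and without the Cont pair 3.

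Other lists of housekeeping machines had no displaced member. No proteasome subunit of 37 on its list was displaced, yet 29 rose by limma (78.4%, against 27.3% of all genes). The count was 10 after centring, 18 without the BA pair and 8 without the Cont pair. Their list had a median log2 ratio of 0.54. Of 38 translation factors and tRNA synthetases none was displaced and 19 rose (8 after centring), and of 56 genes of oxidative phosphorylation none was displaced and 24 rose (4 after centring, when 1034 of all 8459 genes were higher). None of these genes fell. Without the Cont pair 1 of the 38 and 1 of the 56 rose, and without the BA pair 8 of the 56. PSMB10, an interferon-inducible proteasome subunit outside that list, was displaced, at 28.6, 19.98 and 23.7 RPKM at 0 h and 92.7, 88.0 and 59.4 RPKM at 24 h.

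Among metabolic enzymes AKR1B7, an aldo-keto reductase that detoxifies aldehydes, ranked first outside the cell cycle lists by the pair with the smallest change. It was at 0.21, 0.95 and 25.8 RPKM at 0 h against 63.2, 37.2 and 247 RPKM at 24 h in the Cont, BA and BF columns. The BF columns were the highest at both times, and the mean log2 ratio was 4.41 ± 1.26. XTP3TPA (Dctpp1), which hydrolyzes modified nucleotides, reached 31.5, 24.8 and 32.4 RPKM from 3.59 to 6.77 RPKM. The acyl-CoA thioesterase ACOT1 was at 0.26 RPKM or less at 0 h against 1.52, 13.5 and 2.71 RPKM at 24 h, so the BA column stood out. The serine synthesis gene PSAT1 also was highest in the BA column at 24 h (13.5 RPKM against 5.71 and 4.89). FABP4, a fatty acid-binding protein known from adipocytes and macrophages, went from 2.46, 9.13 and 3.52 RPKM to 14.2, 45.1 and 12.7 RPKM. Of the transporters, ABCB1B, a multidrug export pump, was at 4.54, 7.38 and 2.79 RPKM at 0 h against 42.4, 28.3 and 32.1 RPKM at 24 h (mean log2 ratio 2.63 ± 0.72). UST4R, of the organic anion transporter family, was above its 0 h level at 24 h by a mean log2 ratio of 1.13 after lying below it at 4 and 12 h in all 3 prefixes.

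Displaced genes of signalling and inflammation included some that the groups entered PH with at very unequal levels. LCN2, lipocalin-2, an iron-trapping acute phase protein, was at 3.03 RPKM in the Cont column at 0 h but at 1388 and 808 RPKM in the BA and BF columns. At 24 h it was at 1852, 3385 and 2815 RPKM, so its log2 ratio was 8.84 in the Cont pair against 1.29 and 1.80. TIMP1, an inhibitor of matrix proteases, showed the same order at 0 h (5.17, 22.6 and 15.2 RPKM) and nearly equal levels at 24 h (48.0, 50.5 and 43.4 RPKM). The acute phase list as a whole gave median log2 ratios of 1.31 (Cont), 0.04 (BA) and -0.32 (BF). TNFRSF9, a costimulatory receptor of lymphocytes, and NRG1, a ligand of ERBB receptors, had mean log2 ratios of 1.83 and 1.53. Beside these genes stand the neutrophil and monocyte markers. None of the 7 tested was displaced and 4 rose by limma (1 after centring, 1 without the Cont pair, 2 without the BA pair), among them S100A8 at 0.63, 9.28 and 8.58 RPKM at 0 h and 11.6, 26.6 and 17.6 RPKM at 24 h. Their part in the higher levels of inflammatory genes was not tested.

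The lowered genes were also grouped by role after their values had been seen, and 9 of the 56 fitted no role used here. The largest group, 10 genes, metabolizes drugs and steroids. CYP2C, which RefSeq names Cyp2c11, the principal male-specific P450 of rat liver, was at 2997, 926 and 696 RPKM at 0 h against 623, 143 and 92.6 RPKM at 24 h in the Cont, BA and BF columns. The 3 columns at 24 h were all below the lowest column at 0 h, and the order of the prefixes was kept. Its mean log2 ratio was -2.62 ± 0.32. CYP3A2, a P450 that hydroxylates steroids, went from 2405, 1569 and 2014 RPKM to 467, 540 and 569 RPKM (mean log2 ratio -1.91 ± 0.42). Neither time overlapped with the other. CYP2J3 and CYP2D2 completed the 4 displaced P450 genes of 31 tested. By limma 11 of the 31 fell (35.5%, against 6.17% of all genes) and CYP2R1, a vitamin D 25-hydroxylase, rose. The median log2 ratio of the list was -0.59. After centring 15 fell, without the Cont pair 7 and without the BF pair 1.

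INMT, which methylates indole amines, was at 92.7, 9.01 and 10.9 RPKM at 0 h against 0.25, 0.17 and 0.09 RPKM at 24 h, where it was barely detected. RGD1307603, which RefSeq names Gstp3, a glutathione transferase, was at 596, 124 and 202 RPKM at 0 h against 65.4, 17.7 and 26.0 RPKM at 24 h (mean log2 ratio -2.94 ± 0.22). HSD17B2, which inactivates sex steroids, went from 810, 245 and 300 RPKM to 170, 110 and 51.6 RPKM. For all of these the Cont column was the highest at 0 h. GLYAT, the glycine conjugase of benzoate, and SULT1C3, a sulfotransferase, were the other displaced conjugating enzymes besides INMT on the phase II list, where 3 of 44 were displaced downward. By limma 11 of the 44 fell (25.0%, against 6.17% of all genes) and 3 rose, namely SULT1B1, NNMT and TPMT. Without the Cont pair 4 of the 44 fell and without the BA pair 7.

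Promoters of 3 lowered genes are shown for comparison with those of the higher genes above, with the same window and the same meaning of capitals.
CYP2C: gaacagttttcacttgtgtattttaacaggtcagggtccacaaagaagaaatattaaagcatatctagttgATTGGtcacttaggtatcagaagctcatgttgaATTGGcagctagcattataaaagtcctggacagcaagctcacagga
CYP3A2: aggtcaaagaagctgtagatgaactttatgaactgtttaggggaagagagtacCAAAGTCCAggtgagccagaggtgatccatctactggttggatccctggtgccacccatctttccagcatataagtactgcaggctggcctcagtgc
SLC10A1: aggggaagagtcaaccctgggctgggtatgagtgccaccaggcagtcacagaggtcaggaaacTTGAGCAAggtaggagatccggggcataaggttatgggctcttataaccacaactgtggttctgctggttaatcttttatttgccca
They lie at chr1:246175066-246175215 (+ strand), chr12:14343858-14344007 (- strand) and chr6:106357945-106358094 (- strand). TTNNGCAA, letters known from sites of C/EBP factors, occurred upstream of 7.93% of all matched genes, 9.18% of the higher cell cycle genes, 5.63% of the other higher genes and 17.9% of the lowered genes (7 of 39). CAAAGTCCA, known from HNF4 sites, occurred in 28 of the 6546 windows, of which 1 belonged to a lowered gene, CYP3A2, 1 to a higher cell cycle gene and 0 to the other higher genes.

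**Figure D3:**
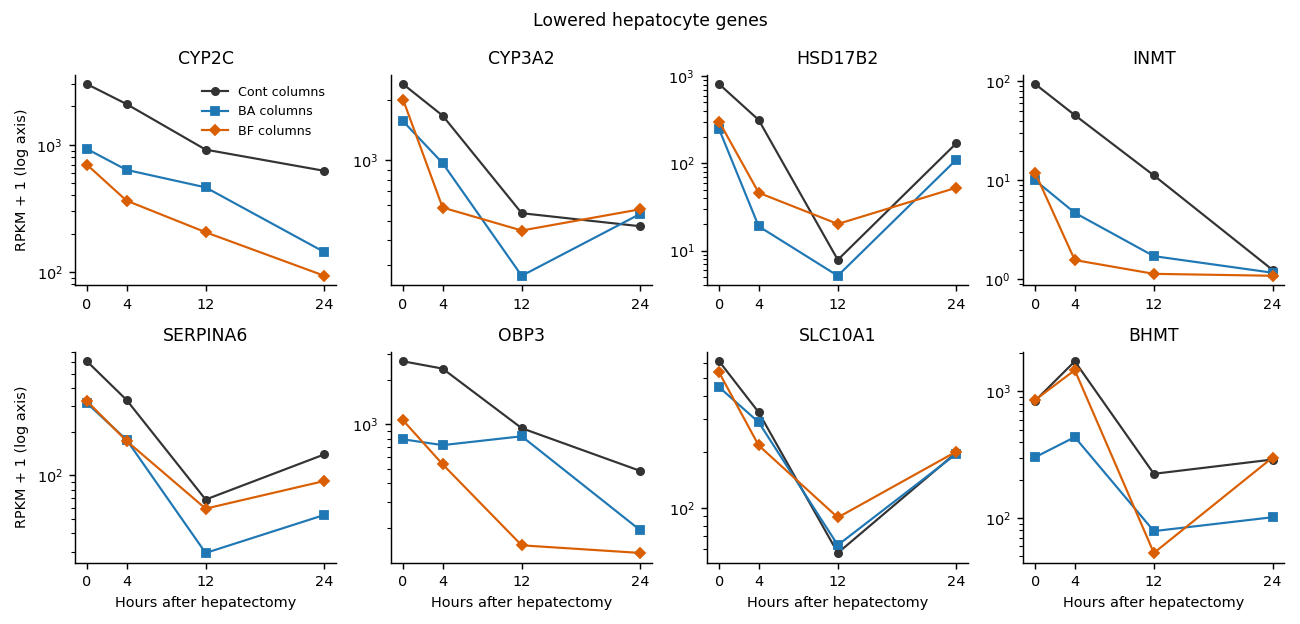
Level (RPKM plus 1, log axis) of 8 lowered hepatocyte genes at 0, 4, 12 and 24 h after hepatectomy, 1 line per prefix (circles Cont, squares BA, diamonds BF) and no error bars, since a column has no replicate. HSD17B2 and SLC10A1 were lowest at 12 h in all 3 prefixes, while CYP2C and INMT were lowest at 24 h.

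Secreted proteins made up the next part of the lowered genes. SERPINA6, the corticosteroid-binding globulin of plasma, was at 607, 312 and 322 RPKM at 0 h against 138, 52.5 and 90.6 RPKM at 24 h (mean log2 ratio -2.16 ± 0.37). All 3 genes of the murinoglobulin and alpha-1-inhibitor III family, broad plasma protease inhibitors of rodents, were displaced. LOC297568 (alpha-1-inhibitor III) went from 3063, 1299 and 1106 RPKM to 412, 208 and 245 RPKM, and MUG1 from 1128, 501 and 540 RPKM to 173, 144 and 153 RPKM. The serpins SERPINA3K and LOC299282 were lower by mean log2 ratios of -2.74 ± 1.29 and -2.72 ± 1.32. Their BF pairs had ratios of -1.28 and -1.20, against -3.24 to -3.71 in the Cont and BA pairs. The members of these families are close copies, and reads may have been split among them.

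Alpha-2u globulins are male-specific carriers of pheromones that rat liver secretes into blood and urine. Of 6 genes listed, 4 were tested and 3 were displaced, and the fourth was below 0 in all 3 pairs from a level of 2.33 RPKM or less. LOC298116 was at 23256, 10543 and 10147 RPKM at 0 h against 10005, 4802 and 3882 RPKM at 24 h. OBP3 was at 2668, 793 and 1066 RPKM at 0 h against 485, 192 and 135 RPKM at 24 h. Both were highest in the Cont column at both times. These genes are also near-identical copies, so the level of a single one is uncertain. Apolipoproteins followed: APOC1 went from 6245, 3987 and 4646 RPKM to 2521, 1081 and 1805 RPKM, and APOA2, a main protein of high-density lipoprotein, from 2744, 1909 and 2333 RPKM to 893, 580 and 1008 RPKM. On the list of secreted carriers 5 of 35 genes were displaced downward. By limma 12 fell (34.3%, against 6.17% of all genes, and 1 without the BF pair). MTTP, which loads lipid onto apolipoprotein B, rose (adjusted p = 0.013 by limma), with a mean log2 ratio of 0.81. Of 48 complement and coagulation genes none was displaced. By limma 9 of them fell (18.8%, against 6.17% of all genes), among them F11, F12 and PLG (1 without the Cont pair). ALB, albumin, stood at 99928, 87628 and 90662 RPKM at 0 h against 53967, 62342 and 44249 RPKM at 24 h, a log2 ratio of -0.89, -0.49 and -1.03.

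Single genes of glucose and fat use were displaced rather than their whole pathways. THRSP (Spot 14), which promotes fat synthesis, went from 1060, 989 and 439 RPKM to 181, 82.6 and 124 RPKM. The BA pair had the largest change, with a log2 ratio of -3.57. ACACB, which makes malonyl-CoA at the mitochondrion, and PPP1R3B, which directs phosphatase to glycogen, were lower by mean log2 ratios of -1.62 and -1.49. Of 21 tested genes of fatty acid synthesis 2 were displaced downward. By limma 4 fell and 4 rose (19.0% each, against 6.17% and 27.3% of all genes), the latter including ELOVL2 and ME1. After centring 8 fell and 1 rose, without the Cont pair 2 and 2, and without the BA pair 4 and 2. Of 32 genes of glucose handling 2 were displaced downward. By limma 5 fell (15.6%, against 6.17% of all genes) and 8 rose (25.0%, against 27.3%). After centring 7 fell and 5 rose, and without the Cont pair 2 and 1. The 8 that rose before centring included the glycolytic genes LDHA, PGK1, TPI1 and ALDOA, and their share was near that of all genes.

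Enzymes of amino acid and one-carbon breakdown were lowered in part. BHMT, which remethylates homocysteine with betaine, had nearly the same ratio in every pair: it was at 843, 302 and 857 RPKM at 0 h against 289, 101 and 299 RPKM at 24 h (mean log2 ratio -1.54 ± 0.03). CAR5A, mitochondrial carbonic anhydrase, went from 42.1, 29.7 and 58.0 RPKM to 8.08, 8.48 and 16.8 RPKM, and CAR3, the abundant cytosolic form, from 4044, 2068 and 1117 RPKM to 1054, 322 and 385 RPKM. ETHE1, of sulfide oxidation, and TYMP, of thymidine breakdown, were also displaced. On the list of amino acid breakdown BHMT was the single displaced gene of 57. By limma 16 fell (28.1%, against 6.17% of all genes, and 6 without the Cont pair) and 3 rose (5.26%, against 27.3%). Those that fell included PRODH, KMO and CSAD. None of 12 urea cycle genes was displaced.

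The sodium-taurocholate cotransporter SLC10A1 (NTCP), through which hepatocytes take up bile acids from blood, was at 616, 446 and 536 RPKM at 0 h against 198, 195 and 200 RPKM at 24 h in the Cont, BA and BF columns. The 24 h levels were nearly equal in the 3 groups, and the mean log2 ratio was -1.41 ± 0.22. SLC10A1 was the displaced uptake transporter of 19 genes on its list, on which ABCB1B was the one displaced upward. None of 16 genes of bile acid synthesis was displaced. By limma 4 fell (25.0%, against 6.17% of all genes), SLC27A5, CYP27A1, AKR1D1 and CYP7B1 (2 without the Cont pair, 2 without the BA pair). CYP7A1, the rate-limiting enzyme of that pathway, was at 60.0, 54.9 and 387 RPKM at 0 h against 57.3, 68.8 and 334 RPKM at 24 h. It thus stood near its starting level in each group after values of 1.81 to 13.8 RPKM at 4 h.

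Regulators of hepatocyte function were few among the displaced. On the cell cycle lists the regulators FOXM1 and E2F1 were displaced upward, with mean log2 ratios of 2.76 and 3.51. Of 43 hepatocyte transcription factors 1 was displaced, DBP. By limma 9 fell (20.9%, against 6.17% of all genes), including CEBPA, THRB and KLF15 (2 without the Cont pair). DBP, an output factor of the circadian clock, was at 77.6, 37.8 and 29.1 RPKM at 0 h against 29.3, 9.92 and 3.10 RPKM at 24 h. NR1D1 (Rev-erb alpha), the clock repressor, went from 70.0, 16.0 and 17.8 RPKM to 25.4, 4.96 and 2.56 RPKM. For both genes the columns of different prefixes overlapped between the times, since Cont at 24 h was above BF at 0 h. The clock time at which livers were taken is not given in the sources used here. On the growth hormone and IGF list CYP2C, SERPINA3K and IGFBP3 were displaced among 22 genes. IGFBP3, the main carrier of insulin-like growth factors, was at 32.1, 24.7 and 21.1 RPKM at 0 h against 12.3, 9.20 and 8.36 RPKM at 24 h. CUX2, known as a female-biased repressor in rodent liver, was among the higher genes, at 1.05, 0.87 and 2.54 RPKM at 0 h and 4.51, 6.10 and 6.15 RPKM at 24 h.

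The lowest ratio of all belonged to STAC3, an adaptor protein best known from skeletal muscle, at 173, 102 and 45.0 RPKM at 0 h against 1.06, 0.12 and 0.62 RPKM at 24 h (mean log2 ratio -5.91 ± 0.94). NOX4, an oxidase that makes hydrogen peroxide, was at 22.0, 12.3 and 11.7 RPKM at 0 h against 4.44, 2.22 and 2.44 RPKM at 24 h. BMF, a pro-apoptotic member of the BCL2 family, was lower by a mean log2 ratio of -2.15 ± 0.61. HIST1H2BH, a histone H2B gene, was lower in the same columns in which DNA synthesis genes were higher, at 114, 133 and 152 RPKM at 0 h and 45.7, 53.2 and 56.9 RPKM at 24 h. The libraries were made from polyadenylated RNA.

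**Figure D4:**
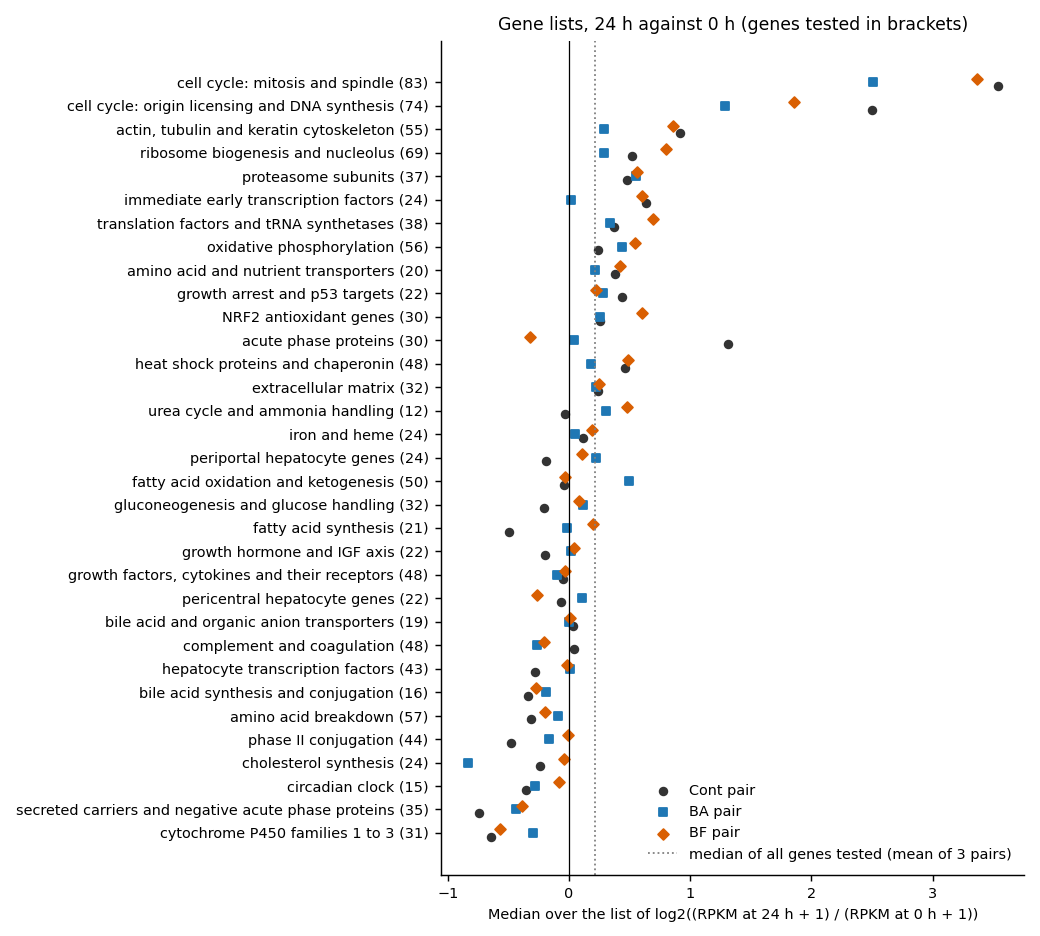
Median log2 ratio of RPKM at 24 h to RPKM at 0 h over the tested genes of each list, 1 point per pair (circles Cont, squares BA, diamonds BF); the dotted line is the median of all genes tested, 0.21. The cell cycle lists lie far to the right, and the lists of P450 genes and of secreted carriers have all 3 pairs below 0.

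The displaced genes reached their 24 h level by different routes. All 120 cell cycle genes were highest at 24 h in all 3 prefixes, and none was 2-fold higher in all 3 pairs at 4 or 12 h. Among the 95 other higher genes 78 were highest at 24 h in all 3 prefixes. Of the 95, 7 were 2-fold higher in all pairs at 4 h (1.71% of all genes were) and 7 at 12 h (0.414% of all genes), in both cases a larger share than of all genes. CDKN1A was the clearest of the early ones, with 67.2, 70.9 and 24.0 RPKM at 4 h, 27.8, 14.2 and 7.93 RPKM at 12 h and a second high level at 24 h. TNFRSF21, FABP4 and OGFRL1 were 2-fold higher at all 3 times. The 4 h column of BA stands apart, with a total of 982826 RPKM and ALB at 303638 RPKM. From the Cont and BF pairs alone, a count added after seeing the data, 11 of the 95 (11.6%) were 2-fold higher at 4 h (2.23% of all genes).

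The lowered genes came down earlier. Of the 56, 13 were 2-fold lower in all pairs at 4 h (2.73% of all genes; 15 from the Cont and BF pairs alone) and 40 at 12 h (2.70% of all genes). Their median log2 ratio was -2.03, -1.83 and -1.95 at 12 h and -1.79, -1.52 and -1.51 at 24 h in the Cont, BA and BF columns. Ratios at the 3 times share the 0 h columns. In 22 genes the 24 h level was above the 12 h level in all 3 prefixes and in 14 it was below. HSD17B2 was an example of the first kind, at 6.83, 4.14 and 19.2 RPKM at 12 h before 170, 110 and 51.6 RPKM at 24 h. RNASE4, a secreted ribonuclease, and SLC10A1 had the same shape. CYP2C, INMT, OBP3 and APOA2 belonged to 11 genes that were lowest at 24 h in all 3 prefixes. CYP2C stood at 916, 462 and 205 RPKM at 12 h, above its 24 h level in each prefix. BHMT rose first, to 1728, 435 and 1471 RPKM at 4 h, and was below its 0 h level at 12 h. Of the 228 genes that were 2-fold lower in all 3 pairs at 12 h, 40 (17.5%) were still so at 24 h.

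**Figure D5:**
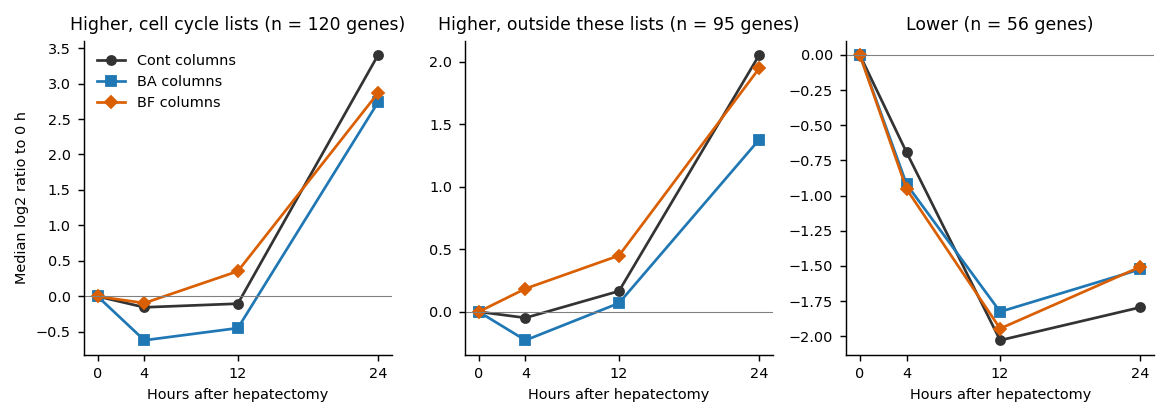
Median log2 ratio to 0 h (1 RPKM added) of the displaced genes at 4, 12 and 24 h, in the Cont (circles), BA (squares) and BF (diamonds) columns, for 120 higher genes on the cell cycle lists, 95 other higher genes and 56 lowered genes. The medians of both higher sets lay between -0.62 and 0.45 at 4 and 12 h, while the lowered genes were at -1.83 or below at 12 h; the genes were chosen by their 24 h values.

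The 3 groups differed in how far the same genes were displaced. In the BA pair the change was the smallest of the 3 for 73 of the 95 higher genes outside the cell cycle lists and for 68 of the 120 on them. The BA column at 0 h held the highest of the 3 starting levels for 61 of the 95 and 76 of the 120. The median level of the cell cycle genes at 0 h was 0.76, 1.75 and 0.51 RPKM in the Cont, BA and BF columns, and 30.2, 22.7 and 18.2 RPKM at 24 h. For the lowered genes the Cont column was the highest at 0 h in 46 of 56 and at 24 h in 36 of 56. With 1 column per group and time, differences between groups have no replicate and were not tested.

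At the edge of the rule, the higher genes just inside were HLA-DMA and SUV39H1, with smallest log2 ratios of 1.01 each, and just outside lay PLA2G2A and TAGLN, whose BA pairs (0.998 each) fell marginally short. On the lower side UPB1 and PON3 were just inside, and AKR1C13 and LTC4S, with -0.98 and -0.97 in the BA pair, just outside.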

How the data were processed

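The deposited table holds RPKM values, made by the authors, with 12 columns and 14692 genes. Per the labels and the published methods, libraries of polyadenylated RNA without strand information were sequenced as single reads and processed with CASAVA and Bowtie 0.12.2. The submitters' processing notes name builds mm8 and rn4. The authors combined 2 runs into each RPKM column, so depth, and any counting error, is unknown. All 12 columns were used.

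Genes averaging 1 RPKM or more were kept (8459), and log2(RPKM + 1) was compared between 24 and 0 h within each prefix. A ratio on this scale understates the change of low genes. Displaced genes were found by size (2-fold in all 3 pairs) without a test. limma 3.58.1 in R 4.3.3 fitted all genes with the prefix as a block, with Benjamini-Hochberg adjustment. It was also run on simulated data, with equal true changes in all 3 pairs and no shift of the median gene. That run does not cover pairs that differ in their change, as these do. The prefix block follows the surgical group, not shared animals. Named genes were the 15 of each direction outside the cell cycle lists and 5 on them with the largest smallest change, those at the threshold, and list members, of which 1 lower gene is not reported here. Further genes were chosen by role after their values were seen. Members and lists were chosen with earlier results of these data known. Promoter windows (RefSeq, GRCr8) matched 6546 of the 8459 genes. Python 3.11.15 was used elsewhere.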

Additional observations from a re-analysis of the deposited data

Results flagged for a closer look

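Of 26 genes that were 2-fold higher in 1 pair and 2-fold lower in another, the 6 with the largest opposite changes are given here, and 7 gene lists with at least 1 pair's median at 0.1 or above and another at -0.1 or below on the log2 scale. Further lists had medians on both sides of 0 without reaching that margin on both. With 1 pair per group, none of these differences was tested. Log2 ratios differed most for UBD, a ubiquitin-like protein induced by cytokines, by 5.87 between the BF and Cont pairs. UBD was at 40.5 and 6.49 RPKM at 0 and 24 h in Cont and at 0.28 and 12.5 RPKM in BF. FAM111A differed by 5.81 between Cont (0.32 and 22.6 RPKM) and BA (37.8 and 11.3 RPKM). ADH6 differed by 5.2 and SPINK3 by 4.81 between the Cont and BA pairs. DEFA24, an intestinal defensin, differed by 5.18 between the BF pair (0.09 and 8.89 RPKM) and the Cont pair (6.98 and 1.00 RPKM). SOCS2, a feedback inhibitor of growth hormone signalling, differed by 3.63 between the same pairs.

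Among the lists, the median log2 ratio of acute phase proteins differed by 1.63 between the Cont and BF pairs. Erythroid markers, of which 2 were tested, differed by 0.873 between BA and Cont, and fatty acid synthesis by 0.695 between BF and Cont. The differences were 0.41 for periportal genes (BA and Cont), 0.37 for pericentral genes (BA and BF), 0.34 for Kupffer cell markers (BF and Cont) and 0.319 for glucose handling (BA and Cont).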

How the results depend on the processing

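The 215 higher genes became 107 with 5 RPKM added, 126 with a filter of 5 RPKM, 611 at 1.5-fold and 79 at 4-fold, and 237 to 479 when 1 pair was left out. The 56 lower genes became 158 at 1.5-fold and 6 at 4-fold, and 65 to 104 when 1 pair was left out. The limma counts of 2310 and 522 became 37 and 9 without a filter on low values, and 1034 and 961 with pairs centred on the median gene. They ranged from 94 to 2345 and from 15 to 525 when 1 pair was left out. Without the replicate block (the pairing by prefix) limma called 2009 higher and 377 lower. The cause of these shifts was not tested. Among lists whose 3 pair medians shared a direction, some near 0 turned: extracellular matrix to -0.016 and iron and heme to -0.051 after centring. Growth factors turned to 0.0103 without a filter and 0.062 with a filter of 5 RPKM. Lists whose pair medians differed in direction were not followed in this way. Several of them had medians above 0 but below the 0.21 of all genes, among them fatty acid oxidation (0.11), glucose handling (0.09), periportal genes (0.12) and Kupffer cell markers (0.04). Of 85 named genes, none that met the rule reversed under any alternative. When a pair was left out this followed from the rule, which asks for the same direction in every pair. Among named genes that did not meet it, the mean log2 ratio of 4 changed sign without the BA pair (UBD, SPINK3, ADH6 and SOCS2). It also changed sign in 2 without the BF pair, 1 without the Cont pair, 2 after centring and 1 with 5 RPKM added. With 5 RPKM added, 13 of the 85 no longer met the threshold, and after centring 4. No read counts were given, so the precision of low values is unknown.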

Other observations

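Several genes typical of intestine moved together in the columns without being displaced by the rule. ZG16, LGALS4, GUCA2A and REG3G were at 3.54 to 5.79 RPKM in the Cont column at 0 h, at 0.13 RPKM or less in the BF column at 0 h, and at 4.71 to 10.6 RPKM in the BF column at 24 h. In the BA columns they were at 1.65 RPKM or less at both times. The metallothioneins MT1A and MT2A, which bind zinc and copper, were at 59.3 and 38.0 RPKM in Cont at 0 h against 289 and 325 RPKM at 24 h, while in BF they went from 350 and 314 RPKM to 133 and 127 RPKM. CISH, a growth hormone target like SOCS2, was at 29.4, 5.76 and 3.85 RPKM at 0 h and 6.69, 12.6 and 13.5 RPKM at 24 h in the Cont, BA and BF columns. These genes were chosen after their values were seen, and none of the differences was tested.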
